A study of Mus musculus with 5 samples.

Results

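The 9 genes described here encode DNA-binding regulators of blood formation: the ETS factors Spi1 (the gene of PU.1), Fli1, Erg and Etv6, the Runx factors Runx1, Runx2 and Runx3, the zinc-finger repressor Gfi1, and Myb. They were chosen by name, are 9 of the 15287 genes in the UMI table, and were all detected and all tested. The single-cell study asked how specifically Fgd5 marks hematopoietic stem cells (HSCs) among bone marrow progenitors. Untreated mice that were 20 weeks old carried 1 Fgd5 allele with a knocked-in ZsGreen reporter and CreERT2, and 1 Rosa26 allele with a Tomato gene (Fgd5CreERT2/+Rosa26Tomato/+ in the labels), so every group shared both modified alleles, and reporter-positive cells were those in which the Fgd5 locus was active enough to show ZsGreen. From their marrow 3 sorts were sequenced, all of them CD45.2+ in the labels. Lin-kit+ cells lack markers of mature lineages and carry the receptor c-kit (3 libraries, called a, b and c here). Fgd5+ cells are Lin-kit+ cells with ZsGreen (1 library). HSC-Fgd5+ cells are ZsGreen-positive and also passed the phenotypic HSC gate of Sca1 and CD150 without CD48 (1 library).

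The cells of the table carried 5 barcode suffixes that name no population, and each suffix was given its population by its number of cells: 793 for Fgd5+, 519 for HSC-Fgd5+ and the other 3 for Lin-kit+. The labels of the 2 reporter-positive samples contradict each other on which of them passed the HSC gate, so both were held as 1 group in every test. The libraries held 519 to 6147 cells, 2166655 to 36080242 UMIs and a median of 3721 to 6567 UMIs per cell. Of the barcodes, 62 occurred in more than 1 library, and 1.28% of cells were called doublets and kept. The summed level of 8 HSC markers was 66.8 to 70.9 UMIs per 1000000 UMIs of the library (CPM) in the Lin-kit+ libraries and 1760 and 1903 CPM in the reporter-positive ones. Whether libraries came from separate mice is not given in the sources used here, so p-values measure the spread between libraries, which may be technical. In the reporter-positive group this spread also includes the difference between the 2 gates, with 1 library each.

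ETS factors bind a GGAA core, Runx factors bind TGTGGT-like sites with their partner Cbfb, Gfi1 recruits the Kdm1a and Rcor corepressors to silence genes, and Myb activates transcription together with Crebbp and Ep300. Erg, Fli1 and Runx1 are known for acting together with Tal1, Lyl1, Lmo2 and Gata2 in stem and progenitor cells. PU.1 is known for its role in myeloid and B-cell development, Gfi1 for granulocyte formation and Myb for keeping progenitors immature.

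Promoter windows from RefSeq (build GRCm38.p6, 250 bases before to 50 after each annotated start) were found for 7 of the 9 genes, 12 windows in all; Fli1 and Spi1 had no entry. The Runx genes are shown because their products recognise TGTGGT and because 1 window of each held the same pair of such sites. In all 3 the reverse complement ACCACA was read 2 times on the strand of the gene, 8 bases apart, within stretches of 30 bases in which capitals mark the 2 motifs.
Runx1, chr16:92826025-92826054, minus strand: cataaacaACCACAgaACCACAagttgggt
Runx2, chr17:44814583-44814612, minus strand: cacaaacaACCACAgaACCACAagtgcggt
Runx3, chr4:135120503-135120532, plus strand: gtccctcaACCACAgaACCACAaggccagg
Counted from +1 at the annotated start, the pair began at +29 in Runx1, at +24 in Runx2 and at -134 in Runx3. In GENCODE M21 the Runx1 stretch lies in an exon of 2 of 7 transcripts, the Runx2 stretch in an exon of 4 of 13 transcripts (in coding sequence in 2 of them), and the Runx3 stretch outside all 6 transcripts. A search of both strands of the 32851 promoter windows found TGTGGT in 16.8% of them and the pair at this spacing in 7 windows, or 0.0213%. The second windows of Runx1 and Runx3 and those of Erg, Etv6, Gfi1 and Myb did not hold the motif. These are letter matches and not measured binding, and counts from 3' ends cannot tell apart transcripts that begin at different promoters of 1 gene.

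Of the ETS members, Erg and Fli1 were higher in reporter-positive cells, Etv6 was higher by a smaller factor, and Spi1 was not called. Erg, which is required for the upkeep of HSCs, was at 8.5, 9.63 and 10.0 CPM in Lin-kit+ a, b and c and at 61.2 and 64.6 CPM in Fgd5+ and HSC-Fgd5+. All reporter-positive values were thus above all Lin-kit+ values, and the log2 fold change was 2.20 ± 0.11 (SE, adjusted p = 7.7e-06, edgeR quasi-likelihood test with TMM scaling and Benjamini-Hochberg adjustment over all genes). Fli1, its close relative, was at 43.6, 42.4 and 40.6 CPM in the Lin-kit+ libraries and at 113 and 127 CPM in Fgd5+ and HSC-Fgd5+. The Lin-kit+ libraries differed by little, the groups did not overlap, and the log2 fold change was 0.97 ± 0.09 (adjusted p = 8.21e-05). Etv6, an ETS repressor needed by HSCs in adult marrow, was at 23.8, 23.8 and 22.2 CPM against 51.6 and 67.8 CPM. Its log2 fold change was 0.81 ± 0.13 (adjusted p = 0.00125), again with no overlap of the groups. In Fgd5+ cells thinned to 1000 UMIs, Erg had a UMI in 5.17% of 793 cells (25.3% unthinned, 95% Wilson interval of the thinned share 3.83 to 6.94%), and in 5.28% of 511 HSC-Fgd5+ cells (22.7% unthinned). In the dendritic class of Lin-kit+ cells it had a UMI in 0 of 536 thinned cells, which allows a share of up to 0.56%, and in 1 cell before thinning, at median depths of 4346, 3721 and 3067 UMIs for the 3 sets of cells.

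Spi1 differed more between the Lin-kit+ libraries than between the groups. It was at 128 CPM in Lin-kit+ a, 42.2 CPM in b and 23.7 CPM in c, against 107 CPM in Fgd5+ and 79.4 CPM in HSC-Fgd5+. Library a was thus above both reporter-positive libraries and b and c were below them, and the log2 fold change was 0.03 ± 0.65 (adjusted p = 0.976). Without Lin-kit+ a it was 0.94 (adjusted p = 0.0186), and without b or c it was -0.20 or -0.36 (adjusted p = 0.832 and 0.524), so the direction and the call for Spi1 rested on single libraries.

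**Figure D1:**
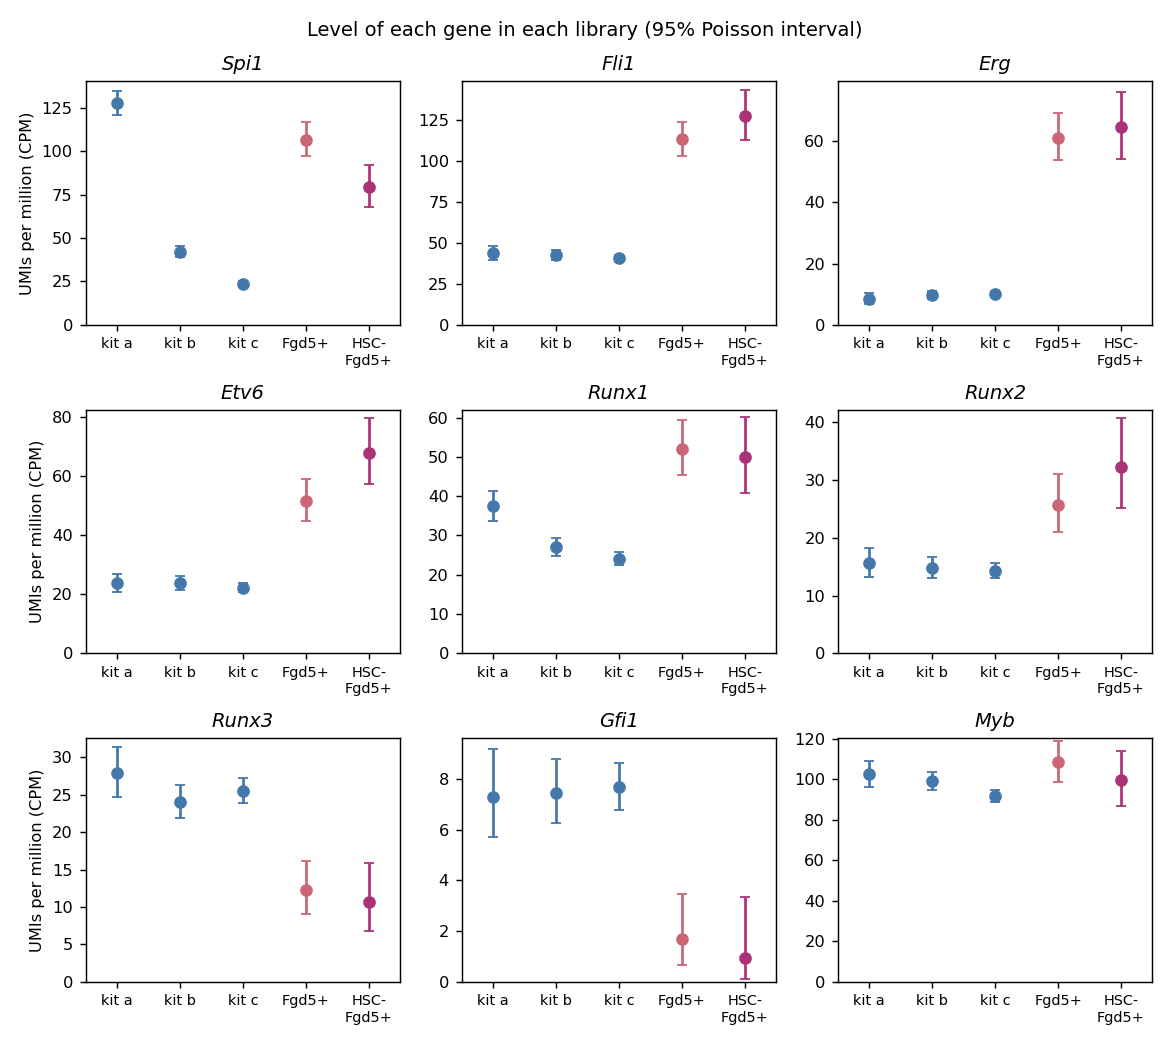
Each panel gives 1 gene, with the 5 libraries on the horizontal axis and CPM with the 95% Poisson interval on the vertical axis (blue, Lin-kit+ a, b and c; red and purple, Fgd5+ and HSC-Fgd5+). Erg, Fli1 and Etv6 lie higher and Runx3 and Gfi1 lower in both reporter-positive libraries, and Spi1 falls from 128 CPM in library a to 23.7 CPM in library c.

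Of the Runx members, Runx3 fell in reporter-positive cells, Runx2 rose by a small factor and Runx1 was not called. Runx3, which is known for its role in T and NK cells, was at 27.9, 24.0 and 25.6 CPM in Lin-kit+ a, b and c and at 12.2 and 10.6 CPM in Fgd5+ and HSC-Fgd5+. The groups did not overlap and the log2 fold change was -1.69 ± 0.14 (adjusted p = 6.37e-05, edgeR). Runx2, the master regulator of bone formation that is also present in plasmacytoid dendritic cells, was at 15.6, 14.8 and 14.3 CPM against 25.7 and 32.3 CPM. Its log2 fold change was 0.41 ± 0.13 (adjusted p = 0.0308), a call that was lost with DESeq2 (adjusted p = 0.192) and without Lin-kit+ a, b or c (0.0514, 0.0816 and 0.0656) or without HSC-Fgd5+ (0.187). Runx1, which is needed for the first HSCs of the embryo, was at 37.4, 27.0 and 24.0 CPM against 52.1 and 49.8 CPM. Both reporter-positive libraries were above the 3 Lin-kit+ ones, but the log2 fold change of 0.27 ± 0.20 did not pass (adjusted p = 0.269). Without Lin-kit+ a it was 0.42 (adjusted p = 0.0182), and with library totals in place of TMM it was 0.81 (adjusted p = 0.0077).

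Gfi1 had the largest fall of the 9 genes. It was at 7.30, 7.44 and 7.68 CPM in the Lin-kit+ libraries, and in Fgd5+ and HSC-Fgd5+ it had 7 and 2 UMIs in all, or 1.68 and 0.923 CPM. The log2 fold change was -2.93 ± 0.27 (adjusted p = 0.000101, edgeR), with no overlap of the groups. Myb was nearly level in CPM: 103, 99.1 and 91.8 CPM in the Lin-kit+ libraries and 108 and 99.7 CPM in Fgd5+ and HSC-Fgd5+, with overlapping groups. With TMM its log2 fold change was -0.44 ± 0.09 (adjusted p = 0.00472), and with library totals it was 0.09 (adjusted p = 0.372). TMM gave the Lin-kit+ libraries factors of 0.86 to 0.87 and the reporter-positive ones factors of 1.24 and 1.26. Going from TMM to library totals moved the median log2 fold change over all genes by 0.54, so the fall of Myb is a fall relative to the other genes.

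In all, 4 members were called higher (Erg, Fli1, Etv6, Runx2), 3 lower (Gfi1, Runx3, Myb) and 2 were not called, at a background of 63.1% of 11991 genes called, 32.7% higher and 30.4% lower. With library totals 5 were called higher and 2 lower, against 54.9% and 16.6% of all genes (71.5% in either direction). In CPM, 5 members were higher without overlap and 2 lower, against 61.8% and 20.6% of all genes (82.4% in either direction), so a call alone does not set a member apart. The median log2 fold change was 0.27 over the 9 members and 0.07 over all genes tested. In sums over libraries, fewer cells of a type and less RNA per cell cannot be told apart. Other measures moved with the groups as well. The summed level of 8 cell division genes was 1023 to 1130 CPM in Lin-kit+ and 510 and 596 CPM in the reporter-positive libraries. The endothelial list (7 of 9 genes measured) was at 2.40 to 3.27 CPM in Lin-kit+ and at 53.0 and 54.0 CPM in the reporter-positive libraries, of which Tie1, which HSCs also express, made up 43.9 and 44.8 CPM. Cdh5, the defining endothelial gene, had 1 UMI in Fgd5+ and 0 in HSC-Fgd5+, and Lyve1 had 0 in both. Kdr, another endothelial gene, was at 0.1 to 0.428 CPM in Lin-kit+ and at 7.20 and 7.39 CPM in the reporter-positive libraries (30 and 16 UMIs), and Sox18 had 0 UMIs in Lin-kit+ and 7 and 1. The part of these genes in the results was not tested.

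Genes that work with the members were read from 6 lists. Of 54 genes, 44 were tested, and 20 were called higher, 9 lower and 15 were not called. Of all genes 32.7% were called higher and 30.4% lower. The median log2 fold change of the 44 was 0.34. With library totals 29 were called higher and 6 lower, against 54.9% and 16.6% of all genes. The 4 partners that bind with Erg, Fli1 and Runx1 in stem cells were all higher, against 32.7% of all genes. Lmo2, a bridging protein without DNA contact of its own, was at 96.1, 54.7 and 40.8 CPM in Lin-kit+ a, b and c and at 908 and 805 CPM in Fgd5+ and HSC-Fgd5+, a log2 fold change of 3.22 ± 0.33 (adjusted p = 0.000153, edgeR). Gata2, a zinc-finger factor of early progenitors, rose by 2.08 ± 0.14 on the log2 scale (adjusted p = 2.05e-05). Tal1 and Lyl1, 2 related bHLH factors named here after their values were seen, had log2 fold changes of 2.06 ± 0.12 and 1.27 ± 0.45 (adjusted p = 1.48e-05 and 0.0415).

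Of 13 other ETS factors tested, 8 were higher, 0 lower and 5 not called at the threshold, and the median log2 fold change was 1.05, against 32.7% higher and 30.4% lower of all genes. With library totals 11 were higher, against 54.9%. The largest were Spic, known from red-pulp macrophages, at 0.161 to 0.5 CPM against 4.32 and 3.23 CPM (log2 fold change 3.24 ± 0.45, adjusted p = 0.000698), and Etv5, at 0.748 to 1.40 CPM against 8.64 and 10.6 CPM (2.80 ± 0.31, adjusted p = 0.000224). Both were at low levels in every library.

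Among 8 Runx partners and corepressors 4 were higher and 4 were not called, against 32.7% higher of all genes. Those not called included Cbfb, the obligate partner of all 3 Runx factors, at 26.8 to 34.3 CPM against 40.1 and 32.8 CPM. Tle2, a Groucho-type corepressor, was at 0.800 to 1.34 CPM against 26.4 and 20.3 CPM (log2 fold change 4.07 ± 0.27, adjusted p = 2.1e-05). Runx1t1, the ETO gene fused to RUNX1 in acute myeloid leukemia, had 1 UMI in the 3 Lin-kit+ libraries together and 73 in the 2 reporter-positive ones. Per UMI sequenced that is a ratio of 746 (95% counting interval 130 to 29880), a range set by the single Lin-kit+ UMI.

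Gfi1b, the paralog of Gfi1 known from erythroid and megakaryocytic cells, moved the opposite way to Gfi1. It was at 12.2 to 13.5 CPM in Lin-kit+ and at 49.9 and 42.9 CPM in the reporter-positive libraries (log2 fold change 1.34 ± 0.12, adjusted p = 8.04e-05). Of the 7 genes of this list 3 were higher and 1 lower, against 32.7% and 30.4% of all genes. Rcor2 was at 0.527 to 0.696 CPM against 10.6 and 11.1 CPM (3.63 ± 0.24, adjusted p = 2.28e-05, edgeR). The lower gene was the deacetylase Hdac1 at -0.57 ± 0.11 (adjusted p = 0.00345), which with library totals was at -0.03 (adjusted p = 0.809). Kdm1a, the demethylase of the complex, was not called (-0.02 ± 0.16). Of 3 Myb relatives and coactivators tested, the coactivator Crebbp was higher (0.63 ± 0.09, adjusted p = 0.000891) and Mybl2, which is known from dividing cells, was lower (-1.45 ± 0.27, adjusted p = 0.00289). The fall of Mybl2 went with the lower level of the cell division genes given above, whose part in it was not tested.

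Of 9 genes known to depend on PU.1, 7 were lower and 2 not called, with a median log2 fold change of -1.70, against 30.4% lower of all genes. With library totals 5 were lower, against 16.6%, and Csf3r and Flt3, whose groups overlapped in CPM, lost the call. Cybb, a subunit of the phagocyte oxidase, was at 96.9 to 103 CPM against 1.92 and 0.462 CPM (log2 fold change -6.67 ± 0.25, adjusted p = 3.03e-06). Csf1r, the macrophage colony-stimulating factor receptor, had 1343 UMIs in Lin-kit+ and 2 in the reporter-positive libraries, 65.7 times as many per UMI sequenced (95% counting interval 18.2 to 543). The summed monocyte markers, 1 of which is Csf1r, went the same way, at 2765 to 2795 CPM in Lin-kit+ and at 83.5 and 48.5 CPM in the reporter-positive libraries.

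**Figure D2:**
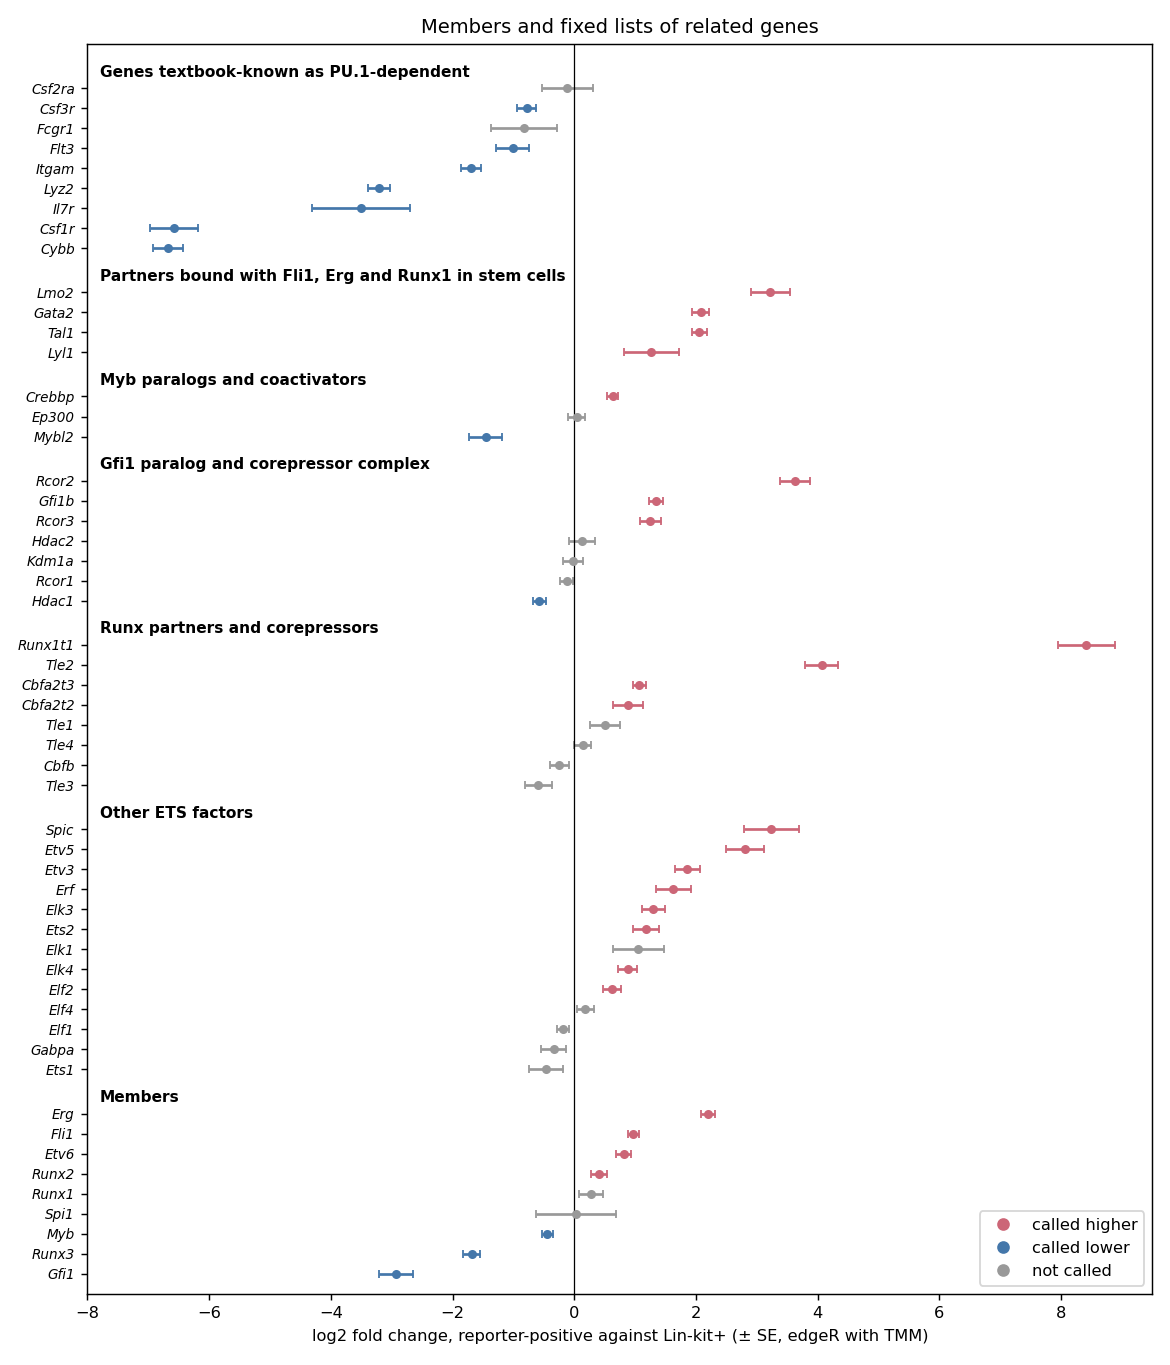
The horizontal axis is the log2 fold change of reporter-positive against Lin-kit+ libraries with its standard error (edgeR with TMM), and each row is 1 of the 9 members or 1 of the 44 tested genes of the 6 lists (red, called higher; blue, called lower; grey, not called). Gfi1 and Gfi1b lie on opposite sides of 0, and the position of Runx1t1 rests on 1 UMI in the Lin-kit+ libraries.

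To place the 9 genes within the Lin-kit+ population, cells were clustered without them and without Fgd5, and clusters were named from marker lists. Of the 19 clusters, 15 gave 10 classes large enough to use, from 53 T or NK cells to 3383 monocyte-like cells. One class stayed unnamed: cluster 9, with 611 Lin-kit+ cells, was led by Prg3 and Prg2 and also had Ctsg, Mpo, Ms4a3 and Prss57. The last 4 are from the early neutrophil list of 6. That name was withheld because 2 eosinophil markers and no early neutrophil marker were among the 10 leading genes of cluster 9. Levels are CPM per class and library, given as the mean ± SD of the 3 Lin-kit+ libraries, and no test was run because the classes come from the same cells. For 7 of the 9 members the highest class lay above the next in all libraries, against 22.6% of 6801 genes with at least 500 UMIs in the Lin-kit+ libraries. Gfi1, with fewer UMIs than that, is among the 7 but not among the 6801. The share of UMIs in the 10 most abundant genes was 41.6% in the late neutrophil-like class, led by S100a8, S100a9, Camp and Ngp, and 7.64 to 13.4% in the other 9, and by construction a larger share leaves fewer CPM for the other genes.

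By class, Erg was highest in the lymphoid-primed multipotent class, Fli1 in the megakaryocyte-like class, and Etv6 was at like levels in both. The name of the lymphoid-primed multipotent class is a loose one. Of its 1535 cells, 1160 were cluster 3, with 4 of 8 markers of the list, 0 of them among its 10 leading genes, and 2 of 8 HSC markers. Erg was at 23.7, 27.5 and 27.2 CPM in the lymphoid-primed multipotent class of Lin-kit+ a, b and c, above all other classes. It was next in the erythroid-like class (14.6 ± 3.33 CPM), which lay above the remaining 8, and reached 1 UMI in the dendritic-like class and 0 in the T or NK class. This order holds for whole classes only. Erythroid-like cluster 8 alone, at 18.7, 28.5 and 22.9 CPM, overlapped both clusters of the lymphoid-primed multipotent class (26.9 ± 0.54 CPM in cluster 3 and 22.9 ± 8.54 CPM in cluster 12). Both reporter-positive libraries, at 61.2 and 64.6 CPM, were above every class. At a clustering resolution of 2, Erg was highest (32.4 CPM) in an unnamed cluster with 5 of 8 HSC markers and 4 of 8 of the lymphoid-primed multipotent list, and with a resolution of 0.5 or with 1000 variable genes in an HSC class (69.0 and 38.4 CPM). Etv6 was at 46.9 ± 6.68 CPM in the lymphoid-primed multipotent class and at 46.9 ± 16.1 CPM in the megakaryocyte-like class, which overlapped. Its highest class was the megakaryocyte-like one without Lin-kit+ a or c, with 1000 variable genes, and with the members among the clustering genes. In cells thinned to 1000 UMIs it was the dendritic-like one (36.9 CPM). At resolutions of 0.5 and 2, Etv6 was highest in the same classes as Erg. Etv6 was lowest, below all other classes but T or NK, in the late neutrophil-like class at 6.74 ± 0.62 CPM. Fli1 was at 270, 209 and 213 CPM in the megakaryocyte-like class, above every other class and above both reporter-positive libraries. From the mast or basophil class (59.5 ± 11.1 CPM) down to the unnamed cluster 9 (44.5 ± 4.37 CPM), neighbours in the order overlapped. The erythroid-like class had the lowest mean, 31.3 ± 2.14 CPM, but overlapped the monocyte-like class (32.9 ± 2.94 CPM). It joined cluster 8 at 48.7 CPM and cluster 13 at 5.69 CPM. The megakaryocyte-like class has 182 cells, and the level of Fli1 in it depended on where its border was drawn. It was 82.9 CPM at a clustering resolution of 0.5, where 1123 Lin-kit+ cells took the name, and 130 CPM at a resolution of 2, where 2 clusters of 385 and 172 did.

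The 3 Runx genes were each highest in a different class. Runx1 was highest in the mast or basophil class at 138, 99.7 and 87.3 CPM, above every other class and above the reporter-positive libraries (52.1 and 49.8 CPM). It was at 44.1 ± 9.29 CPM in the lymphoid-primed multipotent class, which overlapped its neighbours, and at 10.8 ± 3.26 CPM in the late neutrophil-like class. Runx2 was highest in the dendritic-like class at 72.6, 58.7 and 56.1 CPM and next in the lymphoid-primed multipotent class at 37.8, 35.6 and 36.4 CPM, each above all classes below it. The latter class joined 2 unlike clusters. Cluster 12 of it, at 65.7 ± 9.16 CPM, overlapped the dendritic-like class, and cluster 3 was at 27.5 ± 3.31 CPM. Siglech, which marks plasmacytoid dendritic cells, was not among the markers that defined the dendritic-like class, while Cd209a, Batf3 and 3 class II genes were. At a clustering resolution of 2, a dendritic-like cluster of 278 cells had 9 of 10 dendritic markers, Siglech and Tcf4 among them. Another, of 264 cells, had 7 of 10 without Siglech or Tcf4. Runx3 was highest in the T or NK class, where 53 cells gave 48 UMIs and levels of 532, 191 and 367 CPM. The megakaryocyte-like class was next at 106, 91.2 and 118 CPM, above the remaining 8. Runx3 was at 49.4 ± 2.46 CPM in the erythroid-like class and 49.2 ± 2.29 CPM in the lymphoid-primed multipotent class, which did not differ beyond their spread, and at 5.78 ± 1.88 CPM in the late neutrophil-like class. The reporter-positive libraries, at 12.2 and 10.6 CPM, were above the late neutrophil-like class and below all other classes.

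Gfi1 was highest in the early neutrophil-like class and Myb in cluster 9. Gfi1 was at 32.3, 32.5 and 28.4 CPM in the early neutrophil-like class, defined by Elane, Prtn3, Ctsg, Mpo, Ms4a3 and Prss57, and ranked among the 10 leading genes of its cluster although it was kept out of the clustering. Cluster 9 was next at 14.5 ± 3.42 CPM and the late neutrophil-like class after it at 6.94 ± 1.62 CPM. In the monocyte-like class Gfi1 was at 2.03 ± 0.50 CPM, and in the erythroid-like, dendritic-like and mast or basophil classes it had 1, 2 and 3 UMIs. It had 0 UMIs in the megakaryocyte-like class. Myb was highest in cluster 9 at 274, 230 and 203 CPM, above every class, followed by the erythroid-like class at 161 ± 22.0 CPM, and lowest in the late neutrophil-like (27.1 ± 2.19 CPM) and dendritic-like (16.0 ± 7.99 CPM) classes.

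**Figure D3:**
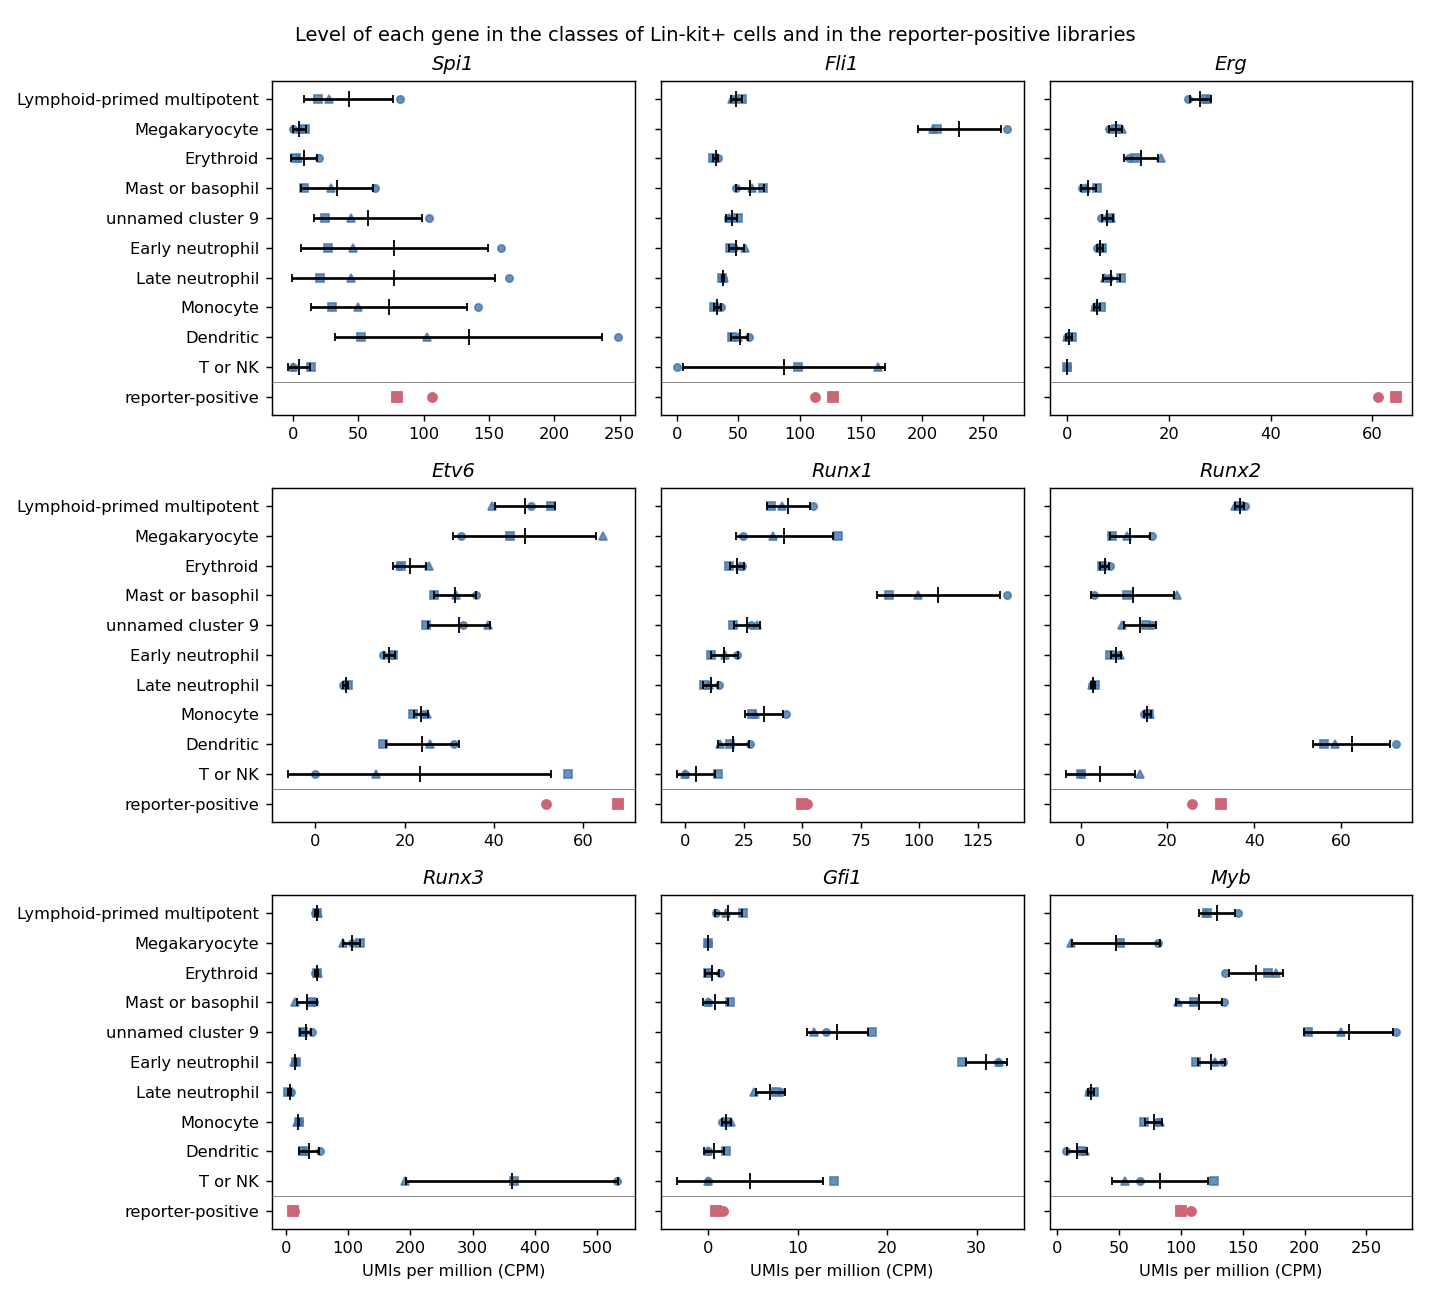
Each panel gives 1 gene, with the 10 classes of Lin-kit+ cells and the reporter-positive libraries on the vertical axis and CPM on the horizontal axis (circle, triangle and square, Lin-kit+ a, b and c; black, mean ± SD, n = 3; red circle and square, Fgd5+ and HSC-Fgd5+). Fli1 peaks in the megakaryocyte-like class at 230 CPM, Runx1 in the mast or basophil class at 108 CPM, Gfi1 in the early neutrophil-like class at 31.1 CPM, and Erg is higher in the reporter-positive libraries than in any class.

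Members could be followed between clusters that shared a marker list, and from the early to the late neutrophil list. The shares of genes given beside each step are of the 6801 genes with at least 500 UMIs in the Lin-kit+ libraries. Gfi1 is counted among the members but is not among the 6801. From the early neutrophil-like cluster to the first late neutrophil-like cluster (cluster 6) 6 of the 9 members were lower without overlap of the libraries, and 0 higher, at a background of 49.0% of genes lower and 7.88% higher, and from there to cluster 7, which had Ltf and Ly6g among its markers, 4 of 9 were lower and 0 higher, against 38.1% and 3.63%. Gfi1 was at 31.1, 10.7 and 2.37 CPM in the 3 clusters in turn, and Myb at 124, 34.4 and 18.6 CPM, with no overlap at either step. Erg, at 6.43, 7.63 and 10.0 CPM, was not lower at either step, nor was Spi1 relative to the level of its own library (1.16, 1.09 and 1.07).

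The erythroid-like cells formed cluster 8, with Klf1 and Epor, and cluster 13, which had Hba-a1, Hbb-bt, Ermap and Rhd as well. In cluster 13, 6 of the 9 members were lower without overlap and 0 higher, against 23.9% and 18.0% of genes. Fli1 was at 48.7 ± 1.61 CPM in cluster 8 and 5.69 ± 2.304 CPM in cluster 13, and Erg at 23.4 ± 4.93 and 1.62 ± 1.59 CPM. Etv6 was at 30.7 ± 5.25 and 6.67 ± 2.87 CPM, and Runx2 had 29 UMIs in cluster 8 and 0 in cluster 13. Runx3 was also lower, at 59.4 ± 6.45 and 35.3 ± 2.41 CPM, while Myb, at 169 ± 16.4 and 146 ± 38.0 CPM, overlapped. Spi1 overlapped in CPM, and relative to its own library it was at 0.164 ± 0.027 and 0.039 ± 0.046 times.

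Of the monocyte-like clusters, cluster 5 was led by Cnn3 and Lgmn, cluster 4 by Bmx, and cluster 1 by Trem2, Fn1 and Clec4b1. Runx2 was at 35.2 ± 3.15 CPM in cluster 5, 8.75 ± 1.04 CPM in cluster 4 and 6.32 ± 1.40 CPM in cluster 1, with no overlap between neighbours. Erg went the same way, at 11.1, 4.996 and 2.66 CPM, and Myb was lower in cluster 1 (49.6 ± 7.28 CPM) than in cluster 4 (90.7 ± 6.47 CPM). From cluster 5 to 4, 4 members were lower and 1 (Gfi1) higher, against 17.2% and 13.6% of genes, and from 4 to 1, 5 were lower and 0 higher, against 13.2% and 14.3%. In the lymphoid-primed multipotent class, cluster 12, which had Dntt, Il7r, Ebf1 and Siglech among its leading genes, had Runx2 at 66.0, 56.5 and 74.8 CPM and cluster 3 had it at 30.8, 27.5 and 24.2 CPM. Etv6 was the other way round, at 29.0 ± 6.71 CPM in cluster 12 and 52.8 ± 6.83 CPM in cluster 3, and the other 7 members overlapped. The background for this pair was 9.78% of genes higher and 13.7% lower.

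**Figure D4:**
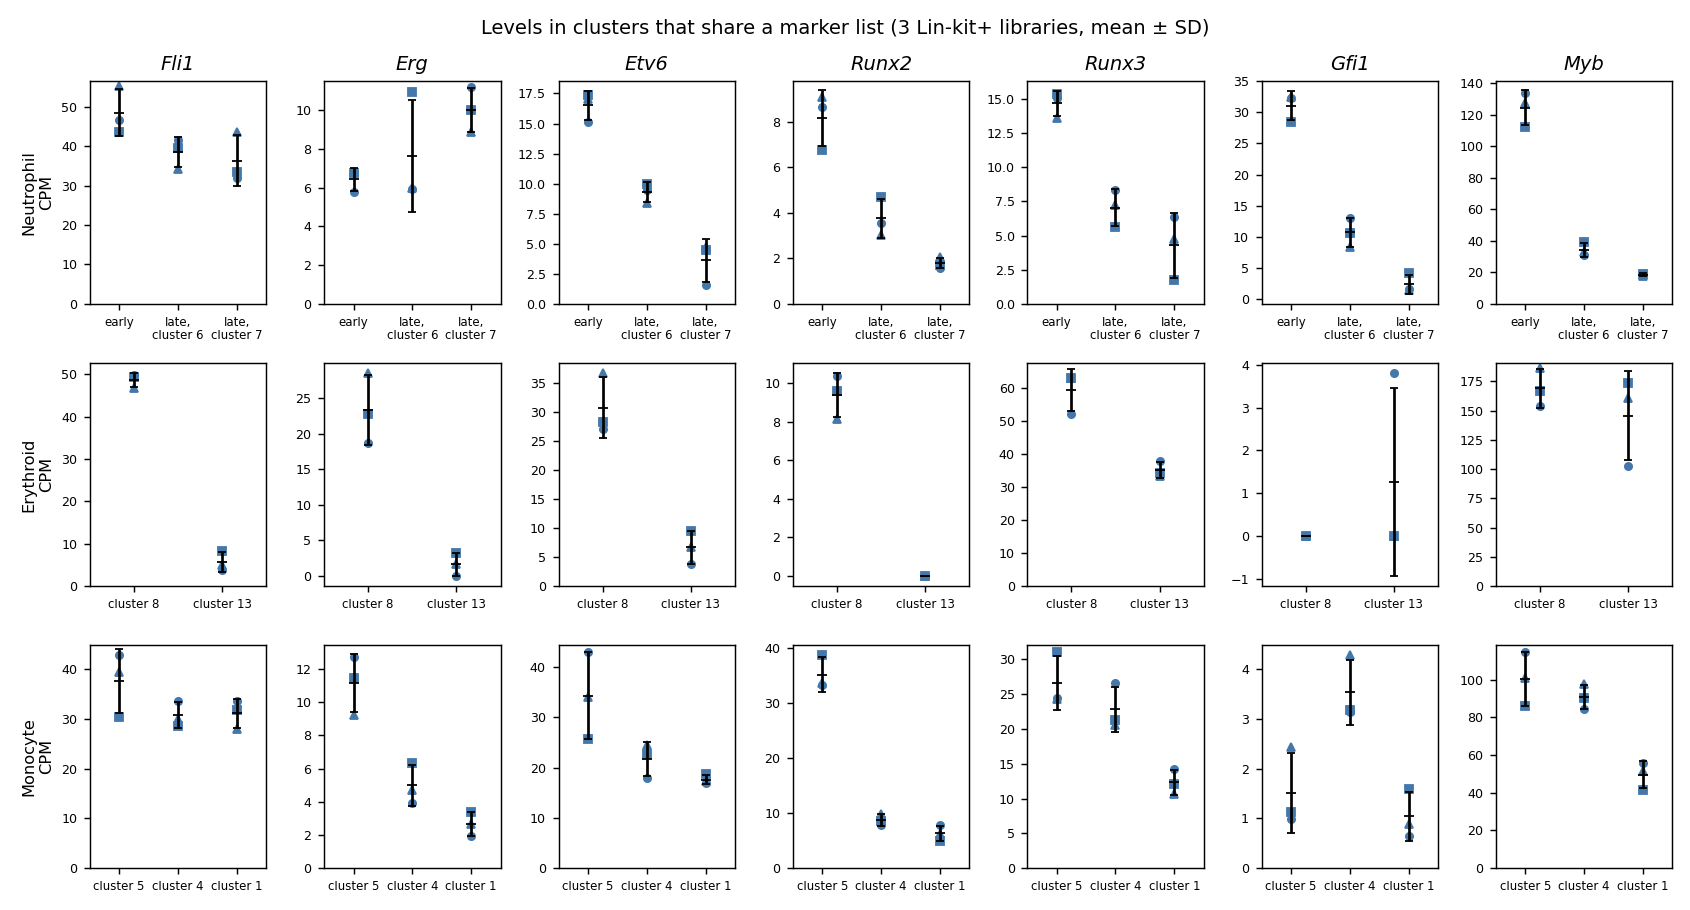
Rows are the neutrophil-like, erythroid-like and monocyte-like clusters and columns are 7 of the 9 genes, with the clusters on the horizontal axis and CPM on the vertical axis (circle, triangle and square, Lin-kit+ a, b and c; black, mean ± SD, n = 3). Gfi1 and Myb step down over the neutrophil-like clusters, Fli1, Erg and Etv6 drop in erythroid-like cluster 13 while Myb overlaps, and Runx2 is highest in monocyte-like cluster 5.

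Spi1 kept its difference between libraries inside the classes. In the 8 classes with more than 3 UMIs in both libraries, its level in Lin-kit+ a was 4.28 to 9.32 times that in c, and b lay between in 8 of 8. In the monocyte-like class it was at 142, 50.04 and 29.8 CPM in a, b and c, and in the early neutrophil-like class at 160, 46.1 and 27.2 CPM. Fli1 within the classes was 0.685 to 1.304 times as high in a as in c, and Runx1 1.28 to 2.02 times. Over whole libraries the ratio of a to c was 5.38 for Spi1, 1.56 for Runx1 and 0.854 to 1.12 for the other 7 members. Spi1 ranked 12th of 6801 genes by this ratio, and 31 genes (0.456%) were at least 4-fold apart. All 31 were higher in a, had b in between, and were higher in both reporter-positive libraries than in b and c. Of the 28 list genes with at least 500 UMIs in Lin-kit+, 16 had the order a, b, c, and the ratio of a to c was largest for Lyl1 (117, 72.4 and 32.5 CPM in a, b and c), Csf2ra (35.4, 20.7 and 12.4 CPM) and Lmo2. When each class was divided by the level of its own library, Spi1 was highest in the dendritic-like class (2.19 ± 0.24 times the library), above all others. The monocyte-like, early and late neutrophil-like classes were at 1.18 ± 0.07, 1.16 ± 0.08 and 1.08 ± 0.20 times and overlapped, and the erythroid-like class was at 0.113 ± 0.039 times.

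**Figure D5:**
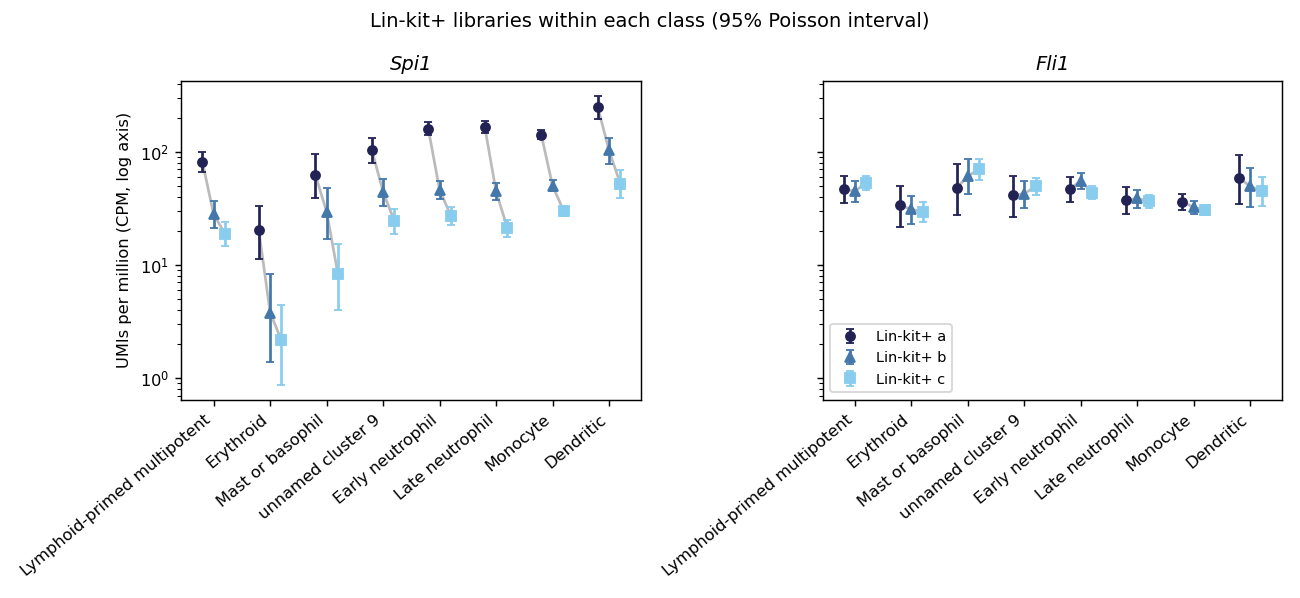
The horizontal axis holds 8 classes of Lin-kit+ cells and the vertical axis CPM on a log scale with the 95% Poisson interval, for Spi1 (left) and Fli1 (right) in Lin-kit+ a, b and c (circle, triangle and square). Spi1 steps down from a to b to c in each class shown, by 4.28 to 9.32 times from a to c. Fli1 has that order only in the monocyte-like, dendritic-like and erythroid-like classes, and is 0.685 to 1.304 times as high in a as in c.

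Fgd5+ and HSC-Fgd5+ could be compared without a test only, with 1 library for each gate. The 95% Poisson intervals, which cover counting error alone, did not overlap for Spi1 (97.1 to 117 CPM in Fgd5+ and 68.0 to 92.2 CPM in HSC-Fgd5+) and overlapped for the other 8. In cells of the largest reporter-positive cluster the intervals of Spi1 overlapped too, at 103 and 83.5 CPM. For Erg the log2 ratio of HSC-Fgd5+ to Fgd5+ was 0.08 with an interval of -0.23 to 0.38, and for Etv6 it was 0.40 with an interval of 0.08 to 0.70. The whole ratio interval of Etv6 was positive although its CPM intervals overlapped, so overlap does not show that the libraries were alike. The late neutrophil markers summed to 1221 CPM in Fgd5+ and 6.92 CPM in HSC-Fgd5+, and their part in these values was not tested. Of the cells, 790 of 793 in Fgd5+ and 405 of 519 in HSC-Fgd5+ had at least 1000 UMIs and under 10% mitochondrial UMIs, and mt-Atp6, mt-Co3 and mt-Co1 were among the leading genes of HSC-Fgd5+ by share of UMIs. The part of this difference was not tested either.

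Most reporter-positive cells (735 of Fgd5+ and 486 of HSC-Fgd5+) lay in 1 cluster with 8 of 8 HSC markers, and 43 and 25 lay in a second cluster with the same markers and raised cell division genes. Runx3 was at 10.2 CPM in the main and 24.4 CPM in the dividing cluster of Fgd5+, and at 6.91 and 38.9 CPM in HSC-Fgd5+. Fli1 was at 111 and 129 CPM in Fgd5+ and at 117 and 210 CPM in HSC-Fgd5+, and Myb at 103 and 136 CPM and at 92.6 and 152 CPM. The values of these 3 genes were higher in the dividing cells. The 95% Poisson intervals did not overlap in HSC-Fgd5+ and overlapped for all 3 in Fgd5+, and for Runx3 the dividing cells held 11 UMIs in Fgd5+ and 10 in HSC-Fgd5+. Etv6 was at 54.5 and 31.1 CPM in Fgd5+ and at 62.8 and 109 CPM in HSC-Fgd5+. Its intervals overlapped in both libraries, and the dividing cells held 14 UMIs in Fgd5+ and 28 in HSC-Fgd5+. Erg was at 62.7 and 55.5 CPM and at 64.9 and 66.1 CPM, with overlapping intervals.

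The genes whose pattern was most like that of a member were ranked by Pearson's r of log2(CPM + 1) over 12 points, the 10 classes and the 2 reporter-positive libraries, among 9602 genes. The 2 reporter-positive points share the same kind of cell, so these values are descriptions. Erg was most like Erc1 (r = 0.96), Msrb2 (0.95) and Gtf2ird1 (0.94), and Etv6 most like Trim44 (0.97), Tmem176b and Tmbim1 (both 0.95). Fli1 was most like Fgd3 (0.95), Ano6 (0.93) and Itgb3 (0.91), the last a subunit of the platelet fibrinogen receptor. Spi1 was nearest to Arhgap27 (0.98), Diaph2 (0.93) and Hfe (0.92), Runx1 to Aga (0.96), Gab2 (0.95) and Arrdc3 (0.93), and Runx2 to H2-M3, Tox4 and Wdfy4 (0.93 for each). Runx3 was nearest to Prps1l3 (0.97), Iah1 and Xlr4a (0.95 for both), Gfi1 to Mcee (0.94), Afap1 (0.92) and Xpc (0.91), and Myb to Nudt19 (0.93), Rpl22l1 (0.91) and Rrp12 (0.90). Of these neighbours Afap1 is also among the leading genes of cluster 9. Prps1l3, Iah1 and Xlr4a peaked in the T or NK class of 53 cells, at 31.4, 87.0 and 35.8 CPM. There 1 UMI in Lin-kit+ a was 66.5 CPM, so the r values for Runx3 rest on few UMIs.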

How the data were processed

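Single-cell libraries were made with Chromium 3' v2 chemistry from sorted marrow of mice that were 20 weeks old. The authors combined 2 sequencing runs and processed the reads with Cell Ranger. The submitters' processing notes name Cell Ranger 1.3 and 2.1, Seurat 2.3.4 and build mm10, and the annotation is not given in the sources used here. The deposited table holds whole-number UMI counts, 1 column for each cell, that had not been scaled. Suffixes were assigned to populations by cell number, which is no independent check of the assignment.

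UMI counts were summed per library and tested with edgeR 4.0.16 (quasi-likelihood, TMM, its filter on low counts, 3 Lin-kit+ against 2 reporter-positive libraries, adjusted p under 0.05), after a check on simulated counts. Cells were clustered with scanpy 1.11.5 and leidenalg 0.10.2 (2000 variable genes without the 9 members and Fgd5, 20 principal components, 15 neighbours, resolution 1). Clusters were named where at least 3 markers of a list were 2-fold higher and found in 5% of cells. Among several such lists, the one with most genes among the 10 leading genes of the cluster came first. The name was withheld where any other list had more genes among these 10. Classes needed 30 cells in all and 5 in each Lin-kit+ library. Intervals and a floor of 3 UMIs cover counting error only. Named genes are the 9 members, the 2 largest changes per list and direction, and the 3 nearest genes by pattern. The members, lists and tests were chosen with earlier results of these data known. Alternatives included DESeq2 1.42.0, library totals, other filters and clusterings, and leaving out each library. The level relative to the own library was added after the data were seen.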

Additional observations from a re-analysis of the deposited data

How the results depend on the processing

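No paired analysis was possible because the barcode suffixes carry no replicate number and the 2 sorts share none. Erg, Fli1, Etv6, Runx3 and Gfi1 kept their direction and call under all 11 alternatives to the test, of which those without Fgd5+ or HSC-Fgd5+ take the lone library to vary like the Lin-kit+ ones. The log2 fold change of Spi1 turned to -0.079 with DESeq2, -0.037 without a filter on low counts, -0.0063 with equal numbers of cells, -0.20 without Lin-kit+ b, -0.36 without Lin-kit+ c and -0.24 without Fgd5+, and passed without Lin-kit+ a (0.94). That of Myb was 0.094 with library totals, where Runx1 passed (0.81) and Hdac1 did not (-0.03). Runx2 also lost its call without a filter (adjusted p = 0.0654) and with equal numbers of cells (0.382). Leaving out 1 Lin-kit+ library gave the same highest class for 8 to 9 members. By its name or number, the highest class was the same for 4 of 9 members at resolution 0.5, 6 at resolution 2 and 5 with 1000 variable genes, where Gfi1 was highest in an unnamed cluster with 6 of 6 early neutrophil markers. Unnamed clusters, such as those with the highest Myb, have no shared numbers between clusterings. With the members among the clustering genes, Myb was highest in an early neutrophil-like class (198 CPM). At resolution 0.5, cells that joined an HSC class put Fli1, Erg and Etv6 highest there. Intervals of Fgd5+ and HSC-Fgd5+ that did not overlap went from 1 to 0 in the largest reporter-positive cluster, where Spi1 was still at 103 and 83.5 CPM. The cause was not tested. Depth limits Gfi1 in reporter-positive cells (9 UMIs) and all values in T or NK cells.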

Other observations

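Classes too small to enter the comparisons gave values over all Lin-kit+ libraries together. In 26 Lin-kit+ cells that joined the HSC clusters, Fli1 had 9 UMIs (123 CPM, 95% Poisson interval 56.2 to 233), and Erg and Etv6 had 5 each (68.3 CPM, 22.2 to 159). Runx3 and Gfi1 had 0 UMIs of 73196 there, which allows up to 41.0 CPM by the floor of 3 UMIs and 50.4 CPM by the Poisson interval, for counting error only. The 26 cells named B lymphoid had 3 of 9 markers of that list (Cd79a, Cd79b and Vpreb3), and Jchain and Mzb1 led their cluster. In these cells Fli1 had 5 UMIs (63.8 CPM, 20.7 to 149). Spi1, Erg and Etv6 had 0 of 78415, which allows up to 38.3 and 47.0 CPM. These values describe this cluster only and not B-cell progenitors in general.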
